A study of Mus musculus with 8 samples.

Results

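The bone marrow (BM) of curcumin-treated GFI1-KD and GFI1-36N mice was compared by the acetylation of lysine 9 of histone H3 (H3K9ac), using the peak lists of the 2 libraries so labelled, out of 8 libraries in the series, 6 of which have a peak list. All of these C57BL/6 mice carried the Nup98-HOXD13 transgene, a fusion gene from human leukaemia that gives mice a myelodysplastic disease passing into acute leukaemia. Both curcumin mice received 20 mg/kg weekly by intraperitoneal injection. The vehicle libraries of the same genotypes, from mice without curcumin, are shown beside them. GFI1-36N mice carry the human GFI1 variant form in place of the mouse gene, and GFI1-KD mice express GFI1 at a reduced level. The list names give both curcumin mice as homozygous and the GFI1-36N vehicle mouse as heterozygous, which the labels do not state. The age of the mice is not given, and the samples are labelled as whole BM, although a caption of the study speaks of c-kit+ cells. Mice were sampled at overt leukaemia or reduced health, so that the cell types in a sample can differ between mice. With 1 library per group, the difference between genotypes, the difference between mice and the difference between libraries cannot be told apart, and no p-value is given.

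GFI1 is a transcriptional repressor of blood cells. It recruits histone deacetylases and the demethylase LSD1 to its target genes, which removes acetylation there, and it steers myeloid progenitors toward granulocytes. H3K9ac marks active promoters and, at a lower level, active enhancers. Curcumin, a plant polyphenol, is described as an inhibitor of histone acetyltransferases and of NF-kB signalling.

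The GFI1-KD curcumin list held 30784 peaks and the GFI1-36N curcumin list 49213, against 39272 and 39564 in the vehicle lists. The strength of a peak is its fold enrichment, the ratio of fragments at its highest point (the summit) to the local background. Its median was 5.81 in GFI1-KD and 4.33 in GFI1-36N, with a median of 36 and 24 fragments at the summit. Fold enrichment was therefore ranked within each list, from 0 (no peak) to 100 (the strongest), so that a rank compares a gene with the others of its library and not an absolute level. All 4 libraries had a peak at Xist, and none had a peak on chromosome Y. Of 32 T cell promoters, 10 had a peak in GFI1-KD and 14 in GFI1-36N, and of 29 B cell promoters 6 and 7.

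Sequences of 6 intronic sites among the strongest distal sites of 1 curcumin library without a peak in the other are shown first, as 200 bases of GRCm38 (mm10) centred on the summit, plus strand. Exonic sites, another site in Nav3, sites between genes and the chromosome 4 stretch described below were left out. Distal means that no base of the site lay within 3 kb of any transcription start site (TSS). Capitals mark matches on either strand to the motifs of GATA, RUNX, AP-1, the E-box, MYB, HOX-PBX, C/EBP, IRF, PU.1 or the GFI1 core. An intron of Nav3, which encodes a microtubule-binding protein, held such sites in GFI1-KD, and so did an intron of Ntrk2, which encodes a neurotrophin receptor. In GFI1-36N they lay in an intron of Mcph1 (microcephalin) near Angpt2, in an intron of the fucosyltransferase gene Fut8 and in an intron of Gm48779, whose nearest coding gene is Prkd1.
Nav3 intron, chr10:109976299-109976498, GFI1-KD alone: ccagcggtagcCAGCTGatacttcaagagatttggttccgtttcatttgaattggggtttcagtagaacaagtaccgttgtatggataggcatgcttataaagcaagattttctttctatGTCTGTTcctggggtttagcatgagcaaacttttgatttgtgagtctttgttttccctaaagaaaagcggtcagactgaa
Nav3 intron, chr10:109986459-109986658, GFI1-KD alone: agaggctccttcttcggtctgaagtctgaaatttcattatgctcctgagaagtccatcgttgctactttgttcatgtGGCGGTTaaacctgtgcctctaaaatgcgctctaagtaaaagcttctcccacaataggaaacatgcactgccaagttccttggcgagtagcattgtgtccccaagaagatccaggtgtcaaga
Ntrk2 intron, chr13:59003501-59003700, GFI1-KD alone: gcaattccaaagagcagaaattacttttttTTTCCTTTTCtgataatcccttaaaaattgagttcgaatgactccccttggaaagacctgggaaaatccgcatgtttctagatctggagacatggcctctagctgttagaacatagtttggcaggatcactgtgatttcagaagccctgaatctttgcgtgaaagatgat
Mcph1 intron, chr8:18767782-18767981, GFI1-36N alone: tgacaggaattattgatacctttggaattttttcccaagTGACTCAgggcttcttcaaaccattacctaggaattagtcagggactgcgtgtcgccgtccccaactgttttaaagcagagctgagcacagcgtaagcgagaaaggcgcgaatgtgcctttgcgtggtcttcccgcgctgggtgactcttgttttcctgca
Fut8 intron, chr12:77306810-77307009, GFI1-36N alone: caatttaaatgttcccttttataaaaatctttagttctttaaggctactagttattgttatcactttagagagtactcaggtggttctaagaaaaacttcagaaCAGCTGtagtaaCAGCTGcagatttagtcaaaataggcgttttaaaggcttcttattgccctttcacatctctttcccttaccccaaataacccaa
Gm48779 intron, chr12:50807363-50807562, GFI1-36N alone: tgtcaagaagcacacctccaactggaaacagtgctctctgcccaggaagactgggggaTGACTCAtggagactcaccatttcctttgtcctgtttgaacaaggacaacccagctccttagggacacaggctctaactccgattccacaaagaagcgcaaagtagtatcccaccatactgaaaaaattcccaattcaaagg

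The first Nav3 site had the highest distal rank of the GFI1-KD sites without a GFI1-36N peak, 99.5, with 130 fragments at its summit. Neither vehicle library had a peak there. The second Nav3 site had rank 96.8 with curcumin and 41.5 in the GFI1-KD vehicle library, and no peak in either GFI1-36N library. In all, 7 distal sites nearest to Nav3 were found in GFI1-KD alone and none in GFI1-36N. The Ntrk2 site had rank 93.2 and 57 fragments, with rank 26.6 in the GFI1-KD vehicle library and no peak in either GFI1-36N library. The Nav3 and Ntrk2 sites were chosen for having no GFI1-36N peak with curcumin, and they had none with vehicle either. The site in Mcph1 had rank 99.6 and 118 fragments in GFI1-36N with curcumin. It also had a peak in both vehicle libraries, at rank 99.2 in GFI1-36N and 78.9 in GFI1-KD. The site in Fut8 had rank 98.6 with curcumin and 95.2 with vehicle in GFI1-36N, and no peak in either GFI1-KD library. At the site near Prkd1, the rank was 99.6 and neither the GFI1-KD nor the GFI1-36N vehicle library had a peak. The AP-1 motif TGANTCA stood in the Mcph1 and Gm48779 sequences, the IRF motif in that of Ntrk2, the MYB motif AACNGNC in both of Nav3, and the E-box CAGCTG in the first of Nav3 and at 2 places in that of Fut8. These motifs were found in 5.97% (AP-1), 4.22% (IRF), 25.5% (MYB) and 13.3% (E-box) of all distal sites.

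Promoters covered 1 kb to either side of each annotated TSS. Of 21938 protein-coding genes, 11107 had a promoter peak in GFI1-KD and 11801 in GFI1-36N with curcumin. The same promoters were mostly marked in both, 10959 or 91.7% of the 11949 with a peak in either. In 1 library alone a peak was found at 990 promoters (8.29%). It was found in GFI1-KD alone at 148 promoters, 1.24% of the 11949, and in GFI1-36N alone at 842, 7.05%. The GFI1-36N list thus held 85.1% of the promoters marked in 1 library (Wilson 95% interval 82.7% to 87.1%, counting error only). With the 30784 strongest peaks of each list by −log10 p, the counts were 275 and 496. In the vehicle libraries the order was the opposite, with a promoter peak in GFI1-KD alone at 717 promoters (5.95% of 12050) and in GFI1-36N alone at 284 (2.36%).

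The promoters marked in 1 library carried weak peaks, with a median rank of 4.36 in GFI1-KD and 5.07 in GFI1-36N and medians of 26 and 22 fragments, against 121 and 127 fragments at promoters marked in both. Of the 148 in GFI1-KD alone, 63 also had a peak in the GFI1-KD vehicle library alone and 9 in the GFI1-36N vehicle library alone. Another 44 had a peak in both vehicle libraries and 32 in neither. Of the 842 in GFI1-36N alone, 111 had a peak in the GFI1-36N vehicle library alone, 214 in the GFI1-KD vehicle library alone, 231 in both and 286 in neither. Among promoters with a peak in only 1 vehicle library, both kinds thus had it more often in GFI1-KD. The GFI1-KD vehicle list also held more promoters found in 1 vehicle library, 717 against 284 over all genes.

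Of these promoters, the strongest with no peak of the other library within 3 kb are described. Plcb1 was the strongest in GFI1-KD. It encodes phospholipase C beta 1, which releases inositol trisphosphate below G protein-coupled receptors, and lies on chromosome 2 from 134786067 to 135475258. Its peak, from 134785651 to 134787343, had rank 80.5 with curcumin and 49.7 with vehicle in GFI1-KD, with 166 fragments at the summit under curcumin. Neither GFI1-36N library had a peak within the promoter. Snx7, a sorting nexin of endosomes, had the same pattern, with rank 30.4 with curcumin and 11.9 with vehicle in GFI1-KD and no peak in either GFI1-36N library. The other promoters by the same rule were Tmem47, Slc25a43, Zfp938, Inpp4b (an inositol phosphatase), Lpcat2 and Luzp1, at ranks between 17.9 and 27.2. All 6 of these had a peak in the GFI1-36N vehicle library, so they lacked it under curcumin only. Of the 8 promoters, 7 had a peak in the GFI1-KD vehicle library, and Tmem47 had none there.

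In GFI1-36N alone, under the same limit of no GFI1-KD peak within 3 kb and leaving out genes known only by a predicted-gene symbol, the strongest promoters were those of Eps8l1, an actin regulator, and Tmem178, both at rank 40.2 with 105 fragments at the summit. Eps8l1 had no peak in the GFI1-36N vehicle library but had rank 41.0 in the GFI1-KD vehicle library. Tmem178 had a weak peak, rank 1.60, in the GFI1-KD vehicle library and none in GFI1-36N with vehicle. Mgll, the lipase that cleaves monoacylglycerol, had rank 39.7 with curcumin in GFI1-36N and ranks of 44.0 and 11.7 in the GFI1-KD and GFI1-36N vehicle libraries. The other promoters were Gng11, Olfm1, Zfp111, Hpgd (a prostaglandin dehydrogenase) and Foxc1 (a forkhead factor), at ranks from 25.6 to 30.1. Of these 8, Foxc1 had no peak in either vehicle library, and Eps8l1, Tmem178, Mgll, Gng11 and Zfp111 had one in the GFI1-KD vehicle library.

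Among the 10959 promoters marked in both, the ranks had a Spearman's rho of 0.890 across genes, which are not independent, and the difference in rank had an SD of 13.1. Over all 11949 genes the median difference, GFI1-KD minus GFI1-36N, was −2.72, with 62.1% of genes lower in GFI1-KD. A difference of 20 rank points or more was counted. By this rule 460 promoters (3.85%) ranked higher in GFI1-KD and 899 (7.52%) in GFI1-36N. In the vehicle libraries the shares were 4.64% and 3.58% of 12050 genes. The median difference there was 1.73, with 4903 of the 12050 genes lower in GFI1-KD. Of the 460, 56 also ranked higher in GFI1-KD by 20 in the vehicle libraries and 23 ranked lower by 20. Of the 899, 223 also ranked higher in GFI1-36N by 20 with vehicle and 42 lower.

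**Figure D1:**
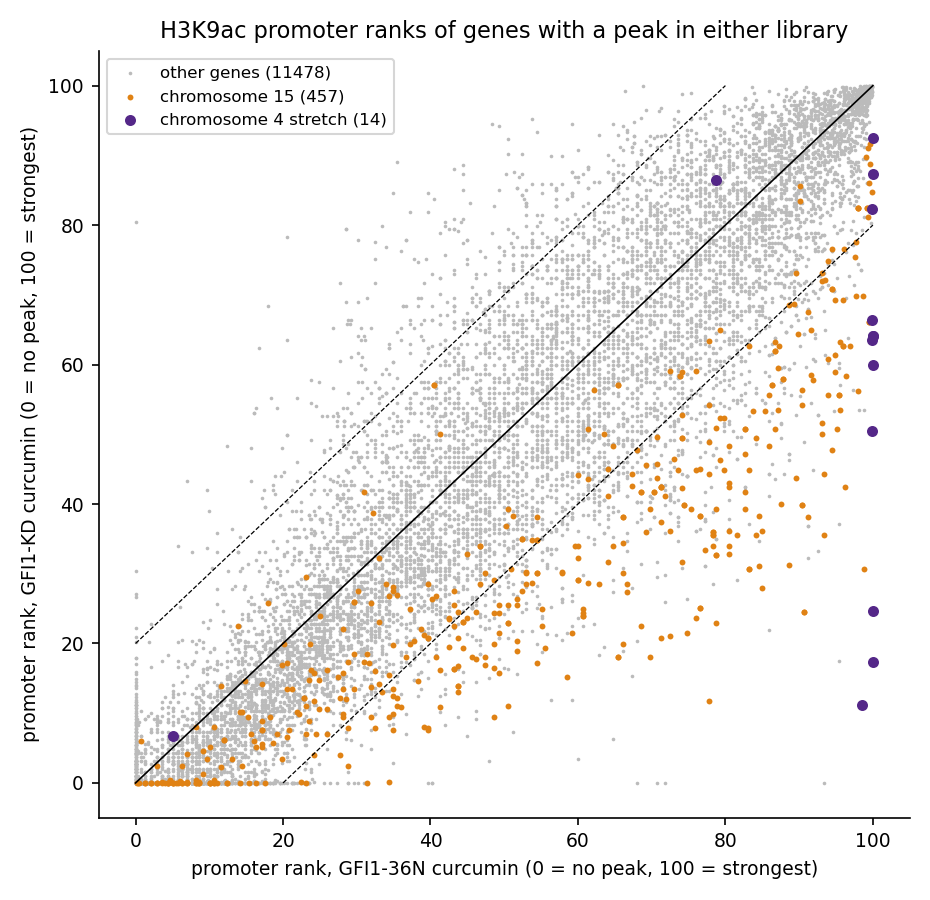
Promoter rank by fold enrichment in the GFI1-36N (x axis) and GFI1-KD (y axis) curcumin library for the 11949 genes with a promoter peak in either, from 0 (no peak) to 100 (strongest). Dashed lines mark a difference of 20 rank points; most of the 457 genes of chromosome 15 (orange) lie toward GFI1-36N, and 12 of the 14 genes of the chromosome 4 stretch (purple) lie near 100 in GFI1-36N.

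The excess of 899 over 460 was uneven over the genome. On chromosome 15, 246 of 457 genes (53.8%) ranked higher in GFI1-36N by 20 and 0 in GFI1-KD. On chromosome 14 the counts were 58 and 7 of 398 genes, on chromosome 6 they were 78 and 10 of 575, and on chromosome 1 beyond 110 Mb they were 41 and 4 of 350. On chromosome X the counts were 3 and 12 of 351. Without chromosomes 1, 6, 14, 15 and X and a stretch of chromosome 4 described below, 446 of 9471 genes (4.71%) ranked higher in GFI1-36N and 412 (4.35%) in GFI1-KD. These regions were chosen after seeing the data, and because they carried the excess. By rank of summit height, a measure defined below that leaves out the local background, the counts were 433 (4.57%) and 299 (3.16%), so that an excess toward GFI1-36N remained on that scale. Over all genes they were 650 and 348 by height.

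The background of the lists moved with 3 of these regions. The local background of a peak, recovered from its fold enrichment and p, had a median of 1.55 times the genome background on chromosome 15 in both GFI1-KD lists, 1.16 and 1.17 times on chromosome 14 and 1.22 and 1.19 times on chromosome 1 beyond 110 Mb. In both GFI1-36N lists the median was 1 on every chromosome, and 87.9% of the curcumin peaks on chromosome 15 were at the genome background, against 0% in GFI1-KD. Fold enrichment divides by this background, so the same height gives a lower GFI1-KD rank there. The control behind each list is not given in the sources used here. A measure without the local background was therefore set beside the ranks, the summit height, in fragments over the genome background. Ranked by the height of the same peaks, 471 of the 899 genes still ranked higher in GFI1-36N by 20 and 310 of the 460 in GFI1-KD. On chromosome 15, 54 of the 246 did, and on chromosome 6, 63 of the 78.

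Summit heights of promoters also differed by chromosome. Over 10698 genes with a promoter peak in all 4 libraries, the median log2 ratio of curcumin to vehicle height was 0.32 in GFI1-36N and −0.17 in GFI1-KD. In GFI1-36N it was 0.43 on chromosome 6 and 0.39 on chromosome 15, against 0.28 to 0.35 on the other 18 chromosomes. In GFI1-KD both chromosomes lay within or near the range of the others, at −0.21 and −0.17 with a range of −0.22 to −0.14. Heights on chromosomes 6 and 15 were thus raised above those of the other chromosomes in the GFI1-36N curcumin library. The number of DNA copies was not measured.

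**Figure D2:**
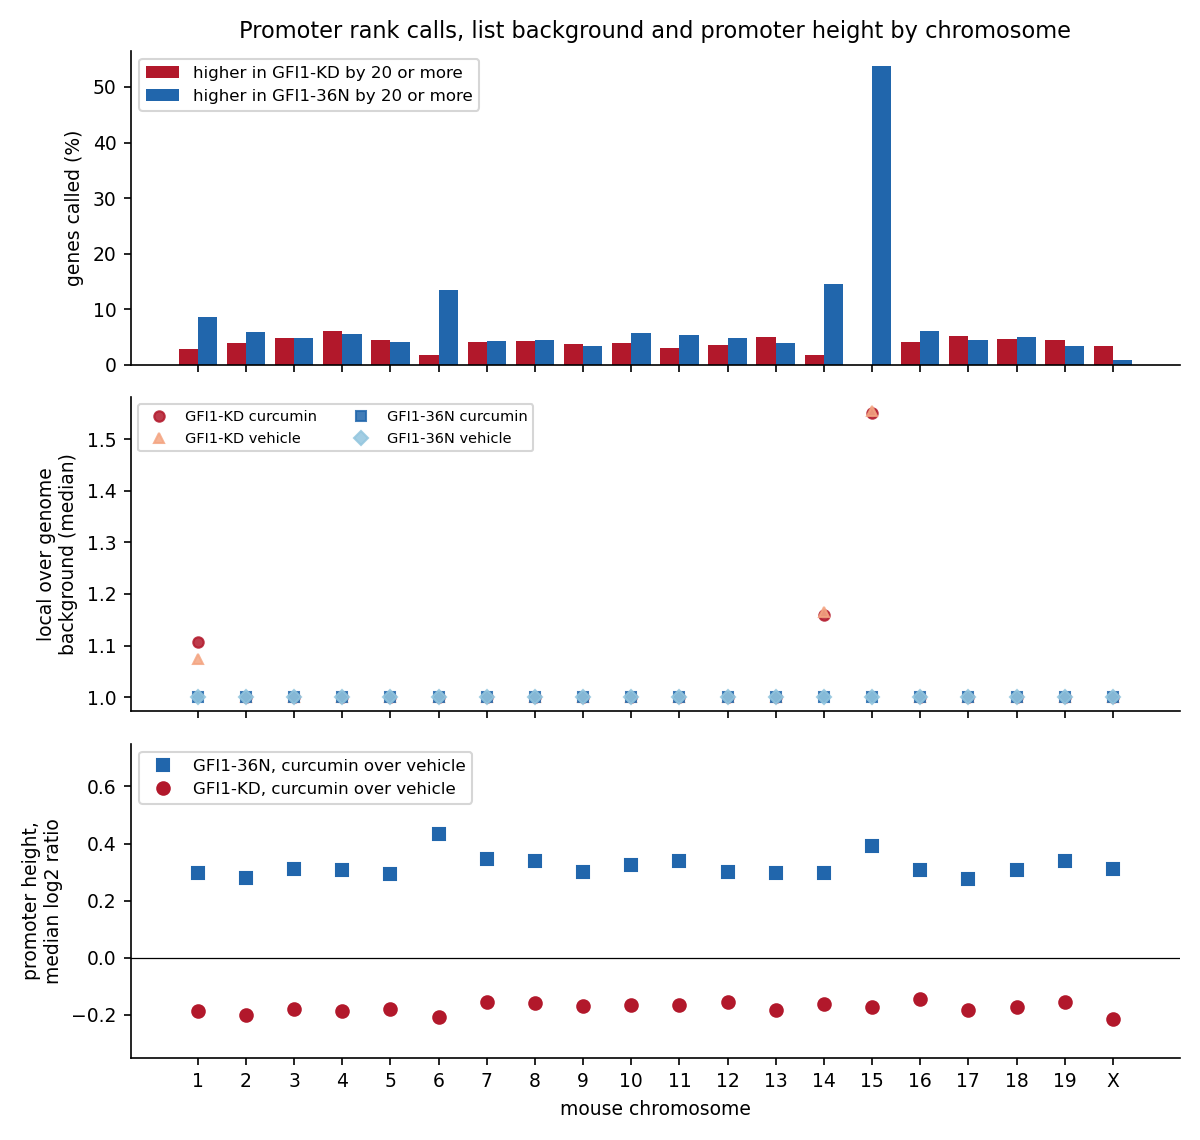
By mouse chromosome: the percentage of genes whose promoter rank differed by 20 or more between the curcumin libraries (top), the median ratio of local to genome background over the peaks of each list (middle, the axis starts near 1) and the median log2 ratio of promoter height between curcumin and vehicle within each genotype (bottom). Chromosome 15 stands out with 53.8% of genes higher in GFI1-36N and a background of 1.55 in both GFI1-KD lists, and chromosome 6 with a height ratio of 0.43 in GFI1-36N.

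A single stretch of chromosome 4 was almost wholly covered by peaks in the GFI1-36N curcumin library. From 124986233 to 126179057 (mm10, 1.19 Mb), 590 peaks followed each other with no gap of over 10 kb and covered 85.5% of the bases. The GFI1-KD curcumin, GFI1-KD vehicle and GFI1-36N vehicle lists had 35, 41 and 49 peaks there, which covered 2.93%, 3.81% and 3.52%. The longest run of this kind elsewhere in the GFI1-36N curcumin list was 120.5 kb, and the longest in the other lists was 103.2 kb. In the 1 Mb before and after the stretch, the GFI1-36N curcumin list had 32 and 35 peaks and the GFI1-KD curcumin list 15 and 27. Peaks in the stretch reached 33.3 kb in width and a fold enrichment of 59.0, and 9 of the 10 strongest peaks of the library lay inside it. Of 591 sites there, 571 were found in GFI1-36N alone. The number of DNA copies in this mouse was not measured, and its part in this pattern was not tested.

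The stretch overlaps 15 protein-coding genes. They include Csf3r, the receptor of granulocyte colony-stimulating factor, Zc3h12a, an RNase that limits inflammatory transcripts, Meaf6, a subunit of histone acetyltransferase complexes, and the glutamate receptor gene Grik3. Csf3r had promoter rank 99.9 in GFI1-36N with curcumin, against 66.4 in GFI1-KD with curcumin and 45.6 and 53.6 in the GFI1-KD and GFI1-36N vehicle libraries. Its summit held 325 fragments in GFI1-36N and 141 in GFI1-KD. Meaf6 had rank 99.9 in GFI1-36N and 50.5 in GFI1-KD with curcumin. The largest differences were at Eva1b (11.2 in GFI1-KD), Oscp1 (17.3) and Sh3d21 (24.7), which stood at 98.5, 99.95 and 99.97 in GFI1-36N and at 13.39, 23.99 and 27.94 in GFI1-36N with vehicle. Of the 14 genes with a promoter peak, Rspo1 and Thrap3 at the edges, with ranks of 5.07 and 78.8 in GFI1-36N, lay outside this pattern. Grik3 had no promoter peak in any of the 4 libraries.

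**Figure D3:**
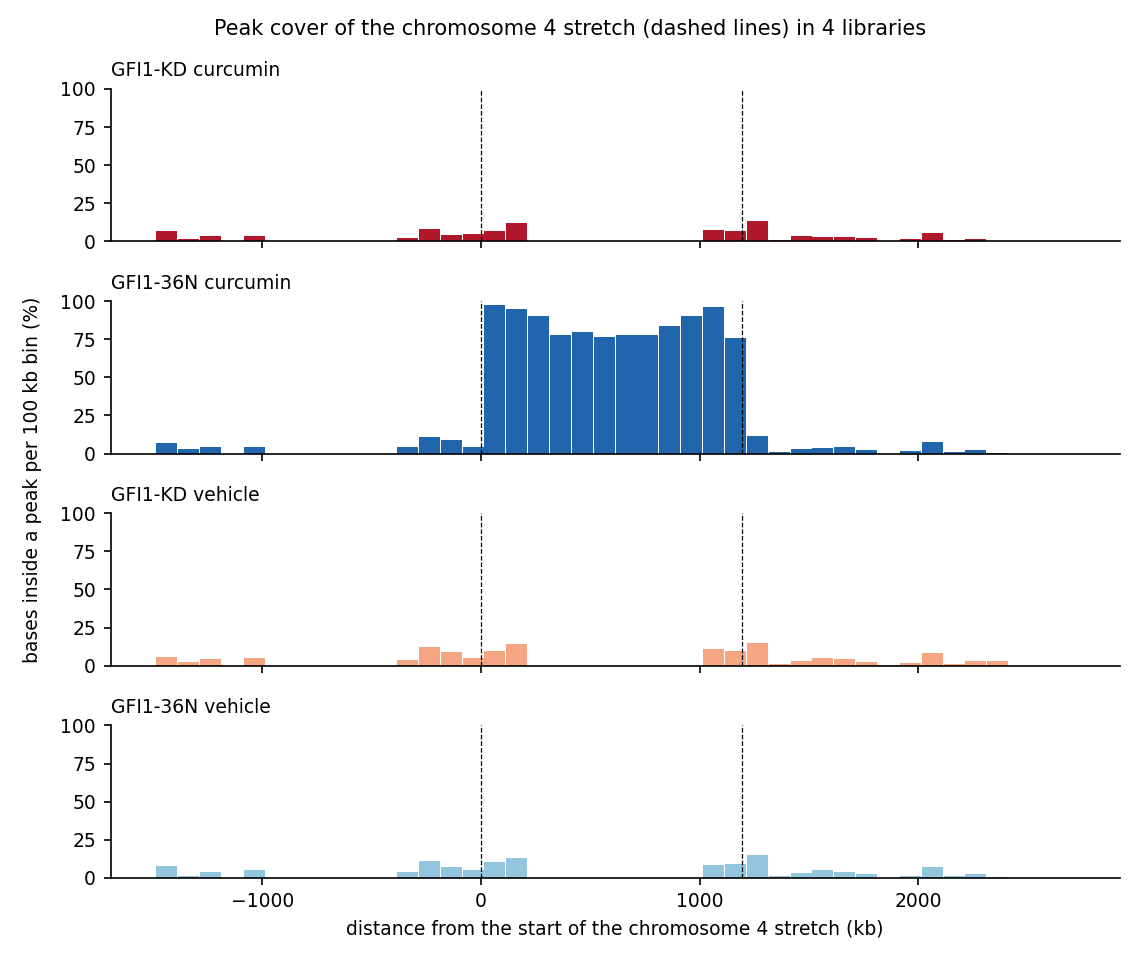
Percentage of bases inside a peak per 100 kb bin (y axis) by distance from the start of the chromosome 4 stretch (x axis, kb) in the 4 libraries. Between the dashed lines the GFI1-36N curcumin list covered 85.5% of the bases, and the other 3 lists covered between 2.93% and 3.81%.

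Of genes marked in both libraries, those with the largest difference toward GFI1-KD lay on 6 chromosomes. Mcub, which encodes a subunit of the mitochondrial calcium uniporter, had rank 78.4 in GFI1-KD and 20.5 in GFI1-36N with curcumin, and 39.8 and 34.1 with vehicle. Eya1, a developmental phosphatase and coactivator, had ranks of 89.0 and 35.5, with 187 and 96 fragments. With vehicle the order at Eya1 was the opposite, 9.53 in GFI1-KD and 48.4 in GFI1-36N. Dusp3, a phosphatase, and Cfap97d1 share a peak that ranked 79.5 and 28.5. Fam160a2, Tmem38b, Inpp5j and Prkce, a protein kinase C, followed, with ranks from 68.3 to 84.6 in GFI1-KD and from 17.9 to 34.9 in GFI1-36N. By summit height, the log2 ratio of GFI1-KD to GFI1-36N was between 0.79 and 1.45 at all 8 genes, against a median of −0.11 over all genes with both peaks.

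Toward GFI1-36N, the 8 genes with the largest difference were Eva1b, Oscp1 and Sh3d21 of the chromosome 4 stretch, Ddx23, Cct5, Fam173b and Map3k12 of chromosome 15, and Mab21l2. Mab21l2, a developmental gene on chromosome 3 from 86545581 to 86548629, was marked in GFI1-36N with both treatments. Its rank was 95.3 with curcumin and 93.9 with vehicle in GFI1-36N, against 17.5 with curcumin and no peak with vehicle in GFI1-KD. The GFI1-36N curcumin peak ran from 86542025 to 86549234 and held 213 fragments, and the GFI1-KD peak held 56. At the chromosome 15 genes, where the GFI1-KD background was raised, the log2 height ratio was −0.35 for Ddx23 (an RNA helicase), −0.62 for Cct5 and Fam173b, which share a peak, and −1.66 for the kinase gene Map3k12. Map3k12 thus stayed low in GFI1-KD by height, with 54 fragments against 165.

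Gfi1 itself, the gene altered in these mice, had a promoter peak in both curcumin libraries, at rank 29.3 in GFI1-KD and 35.5 in GFI1-36N with 81 and 96 fragments. A peak at the locus does not give the level of the altered transcript. Gfi1b, its paralogue of erythroid cells, ranked 3.18 and 10.6, and Kit, the stem cell factor receptor, 7.27 and 19.5, both lower in GFI1-KD. In the vehicle libraries the order at both genes was the opposite, 17.1 and 9.55 for Gfi1b and 17.6 and 8.74 for Kit. Hoxa9, a driver of leukaemic self-renewal, was at 99.2 and 99.7 with curcumin, while with vehicle it was at 11 in GFI1-KD and 99.4 in GFI1-36N. Mcl1, an anti-apoptotic gene, stood at 99.6 and 98.4 and Hmox1, heme oxygenase 1, at 37.8 and 31.4. Mycn had a weak peak, rank 3.75, in GFI1-KD alone.

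Among promoters, monocyte and inflammatory genes mostly ranked higher in GFI1-KD than in GFI1-36N with curcumin. All genes had a median of −2.72, with 3.85% and 7.52% past 20 points toward GFI1-KD and GFI1-36N. Ranked instead among all peaks of a list, promoter or not, the medians of the monocyte, NF-kB and immediate early lists were −1.83, −1.87 and −0.36 while that of all genes was −6.49, so that the sign turned but the 3 lists stayed above all genes. Of 27 monocyte and macrophage genes with a promoter peak, 19 ranked higher in GFI1-KD, with a median difference of 6.403. Past 20 points were Klf4, a factor of monocyte differentiation, Tlr2 and Cd14, receptors of bacterial products, and Csf1r, the receptor of macrophage growth factor, and only Vcam1 lay past 20 the other way. Klf4 had ranks of 88.0 and 43.2 with 184 and 110 fragments, Tlr2 of 77.9 and 36.6, and Cd14 of 65.2 and 32.0. In the vehicle libraries Klf4 had 49.7 in GFI1-KD and 76.4 in GFI1-36N, the opposite order, and the median of the list was 0.29. Of 31 NF-kB and inflammatory genes, 21 ranked higher in GFI1-KD (median 6.92, 1.22 with vehicle). Il6ra, an interleukin receptor, had ranks of 92.3 and 50.6, and Tnf, a cytokine, 59.3 and 33.9. Relb and Bcl3, members of the NF-kB pathway, were higher by 21.6 and 21.1, and 0 genes of the list were lower by 20. By rank of summit height the list median was 6.52 and 21 genes were higher in GFI1-KD. On that scale, 2 genes lay past 20 points toward each genotype.

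Immediate early genes, which respond within minutes to stress and growth signals, had the same order. Of 34 with a promoter peak, 23 ranked higher in GFI1-KD, with a median of 3.92 against −1.54 with vehicle. Past 20 points were 8 genes, among them Atf3 (77.6 and 32.5), Egr1 (71.7 and 27.7), Fos (79.2 and 43.8), Fosb (84.98 and 44.38) and Jun (99.3 and 66.4). With vehicle, Fos stood at 82.2 and 81.6 and Jun at 98.5 and 93.0, near each other in the 2 genotypes. The genes past 20 toward GFI1-36N were Myc, Maff and Gadd45a. Myc and Maff lie on chromosome 15, and the log2 height ratio at Myc was −0.88, with 90 fragments in GFI1-KD and 160 in GFI1-36N. In the p53 list the median was 0.98, with 7 of 31 genes past 20 toward GFI1-KD and 1 toward GFI1-36N. Cdkn1a, the p21 inhibitor of the cell cycle, had ranks of 90.2 and 50.6 and 191 and 122 fragments. At Bcl2 and Trp53 the ranks differed by 32.4 and 32.0, but the log2 height ratios were 0.00 and −0.07, so that the 2 libraries were nearly equal in height there.

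Among promoters, genes of protein synthesis and cell division mostly ranked lower in GFI1-KD, though among all peaks of a list the ribosomal median was −3.74, above the −6.49 of all genes, and the E2F median −7.60. Of 74 cytosolic ribosomal protein genes, 62 were lower (83.8%, against 62.1% of all genes), 17 of them by 20, and the median difference was −9.02. Of the 17, 4 lie on chromosome 15, and without this chromosome the median was −8.36. By rank of height the median was −8.92, with 8 of 74 higher in GFI1-KD and 11 lower by 20. At Rps3a1 and Rps7 the ranks differed by −44.7 and −40.9, and the log2 height ratios were only −0.30 and −0.20. With vehicle the list median was −3.66. Of 45 E2F and DNA replication genes, 32 were lower in GFI1-KD (71.1%, against 62.1% of all genes, median −7.64, −1.45 with vehicle). Ccne2, a cyclin of S phase entry, had ranks of 34.7 and 84.6 with 91 and 178 fragments, and the helicase subunit genes Mcm6 and Mcm5 had 40.6 and 80.4, and 50.5 and 77.2. Gins2 ranked lower by 27.9 with a log2 height ratio of 0.15, in the other direction.

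Erythroid genes mostly ranked lower in GFI1-KD with curcumin and higher in GFI1-KD with vehicle. Of 42 with a promoter peak, 29 were lower in GFI1-KD with curcumin (69.0%, against 62.1% of all genes, median −5.48), while with vehicle 4 of 52 were lower and the median was 14.3. Over all genes with vehicle, 4903 of 12050 were lower and the median was 1.73. Without chromosomes 1, 6, 14, 15 and X and the chromosome 4 stretch the erythroid curcumin median was −1.78, close to the −1.89 of all genes there, and among all peaks of a list it was −13.6 against −6.49. Cd24a, a surface antigen of erythroid and other immature cells, had ranks of 11.96 in GFI1-KD and 56.39 in GFI1-36N with curcumin, and 91.1 and 34.1 with vehicle. Tfrc, the transferrin receptor, had 44.0 and 72.4 with curcumin and 58.6 and 43.4 with vehicle. Klf1, the erythroid master factor, stood at 46.7 and 68.6 with curcumin and at 49.7 and 35.6 with vehicle. Epb41 and E2f2 were higher in GFI1-KD by 23.7 and 22.8. Heme biosynthesis genes, 6 with a peak, had a median of 1.30, and none passed 20 points. Of 9 mast cell, basophil and eosinophil genes, 8 were lower in GFI1-KD (median −12.3). Gata2, a factor of progenitors and mast cells, had rank 8.24 in GFI1-KD and 41.97 in GFI1-36N, and 16.9 and 10.4 with vehicle.

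Neutrophil granule genes had a median of −7.18 over 23 genes with curcumin and 7.59 over 28 with vehicle, against −2.72 and 1.73 over all genes. Past 20 points toward GFI1-36N were Csf3r, which lies in the chromosome 4 stretch, and Cebpe, a factor of granule formation (8.49 and 34.9). Hp, haptoglobin, was higher in GFI1-KD, at 51.9 and 31.0. Without chromosomes 1, 6, 14, 15 and X and the chromosome 4 stretch, the list median with curcumin was −3.20. The median of all genes there was −1.89. The neutrophil elastase gene Elane ranked 1.29 and 16.0 and Mpo 25.7 and 24.5. Both genes thus had a peak in both libraries, a weak one at Elane in GFI1-KD. Of 15 megakaryocyte genes 11 were lower in GFI1-KD (73.3%, median −4.34), and of 16 T cell genes 13 were (81.25%, median −3.79), against 62.1% of all genes. Other cell types had few marked genes. NK and cytotoxic genes with a peak numbered 3 (median −8.31), MHC class II genes 7 (median −1.35), stromal and endothelial genes 8 (median −3.71) and B cell genes 9 (median 1.23). In BM of several cell types, fewer cells of a type and less acetylation per cell cannot be told apart.

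Stem and progenitor genes had no common direction, with a median of −0.71 over 34 genes. Myb, a factor that keeps progenitors dividing, had rank 46.3 in GFI1-KD and 88.6 in GFI1-36N, with 119 and 188 fragments and ranks of 46.3 and 44.8 with vehicle. Ikzf2 had the opposite order, 81.9 and 39.7, and 17.8 and 45.8 with vehicle. In the HOX list of 23 genes, 18 were lower in GFI1-KD (78.3%, against 62.1% of all genes), with a median of −4.02 (−8.33 with vehicle). This median depended on the scale and on the genes kept: it was −1.06 by rank of height, where all genes had −3.03, and −11.1 without chromosomes 1, 6, 14, 15 and X and the stretch. The neighbours Hoxb6, Hoxb7 and Hoxb8 had ranks of 6.75, 9.16 and 10.3 in GFI1-KD and 45.0, 46.2 and 46.2 in GFI1-36N with curcumin. With vehicle none of the 3 had a peak in GFI1-KD, and their GFI1-36N ranks were 10.4, 2.47 and 4.89. These 3 genes thus ranked higher in GFI1-36N with both treatments, though their peaks with vehicle were weak.

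Of 26 histone acetyltransferase and deacetylase genes, which act on the mark measured here, 13 ranked higher and 13 lower in GFI1-KD (median −0.48), with 3 and 2 past 20 points. Hdac2 was lower in GFI1-KD (47.4 and 74.1), as was the acetyltransferase gene Kat2a (25.3 and 56.4), whereas the deacetylase gene Sirt3 was higher (66.1 and 43.2). Kat6a ranked 65.8 and 29.1 but had a log2 height ratio of −0.40, the opposite direction. Of 20 genes of the GFI1 corepressor complex, 15 were lower in GFI1-KD (75%, against 62.1% of all genes) and Hdac2 was the only one past 20. The median of this list was −4.41, and 2.97 with vehicle, where all genes had −2.72 and 1.73. Of 28 NRF2 antioxidant genes, 17 were lower (60.7%, near the 62.1% of all genes, median −5.73, 6.50 with vehicle), with Gsr at 70.1 and 91.0. Interferon-stimulated genes had a median of −2.04 over 50 genes, close to that of all genes. Herc6 and Ifitm3 were higher in GFI1-KD, by 30.4 and 29.1, and Dtx3l and Parp9, which share a promoter peak, were lower by 27.1. Oxidative phosphorylation genes had a median of −2.33 over 55 genes.

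**Figure D4:**
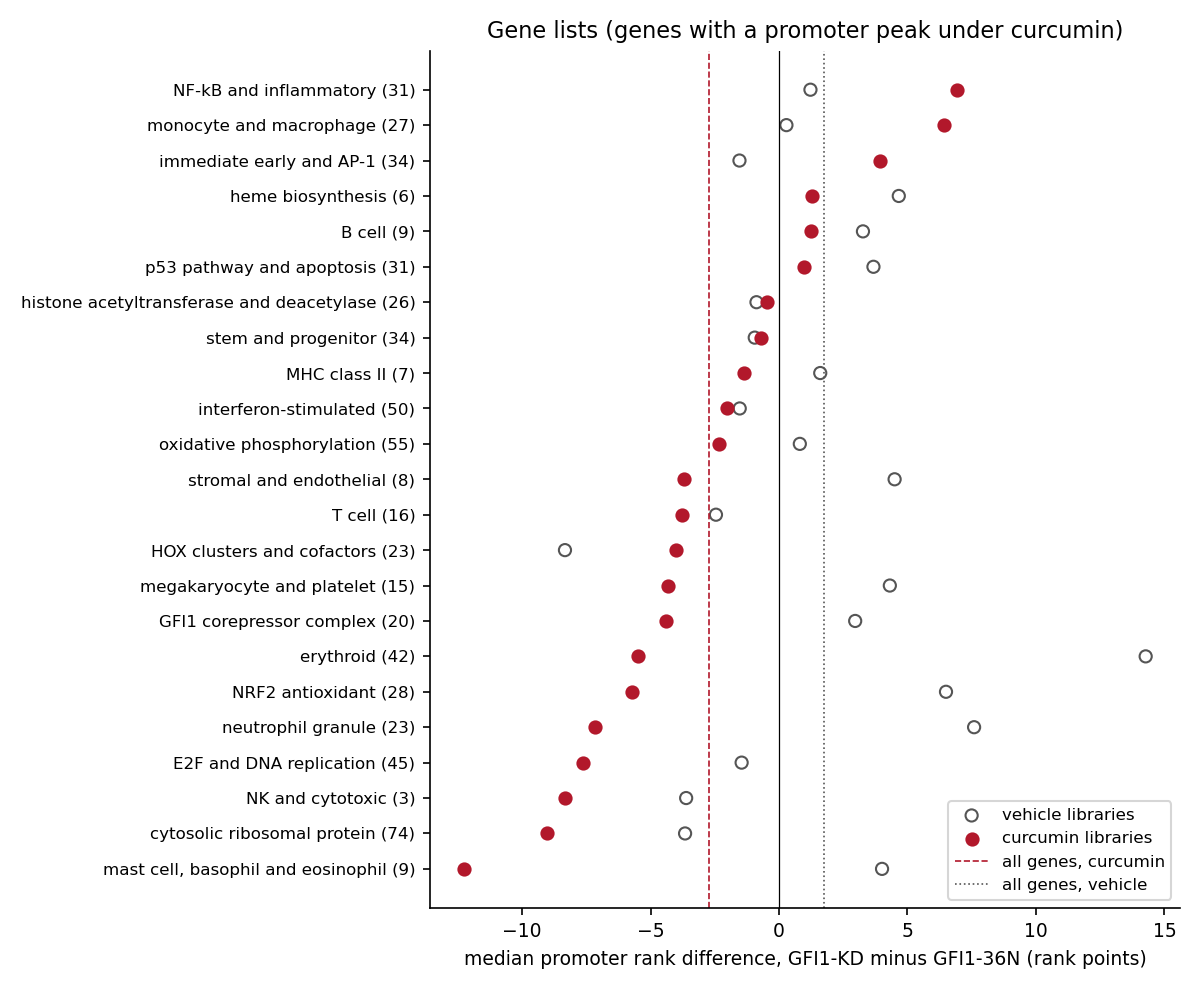
Median difference in promoter rank, GFI1-KD minus GFI1-36N (x axis, rank points), of each gene list with the number of genes with a peak under curcumin in brackets, for the curcumin (filled) and vehicle (open) libraries. Dashed and dotted lines give all genes; NF-kB, monocyte and immediate early lists lie highest with curcumin, from 3.92 to 6.92, and the erythroid list moves from −5.48 with curcumin to 14.3 with vehicle.

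**Figure D5:**
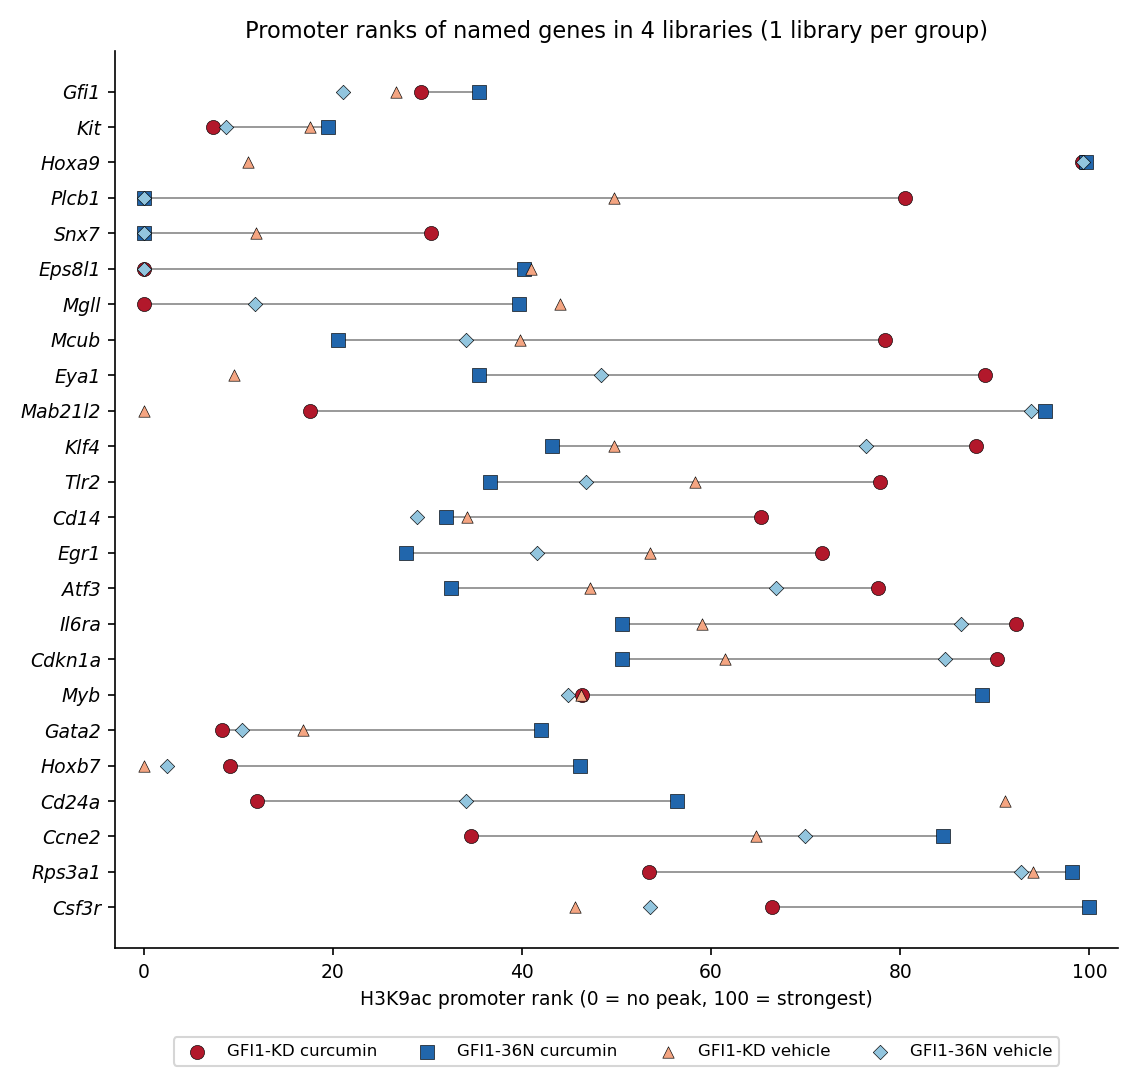
Promoter rank (x axis, 0 for no peak to 100 for the strongest) of 24 named genes in the 4 libraries, 1 point per library, with a line between the curcumin libraries. Plcb1 and Snx7 were marked in the GFI1-KD libraries alone, Mab21l2 was high in both GFI1-36N libraries, and Klf4 and Cdkn1a were highest in GFI1-KD with curcumin.

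Gene families by name prefix differed mainly in how many promoters had a peak. Of 72 developmental transcription factor genes with a promoter peak, 22 had it in GFI1-36N alone and 1 in GFI1-KD alone, and of 48 ion channel genes 19 and 0, against 7.05% and 1.24% of all genes. In the vehicle libraries 53 of the former had a peak in GFI1-KD and 59 in GFI1-36N. Zinc finger (Zfp) genes were marked in similar numbers, 317 in GFI1-KD and 322 in GFI1-36N, with a median difference of −3.57. Of 37 collagen, laminin and integrin genes, 9 were marked in GFI1-36N alone and 1 in GFI1-KD alone.

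Outside promoters the lists diverged further. After overlapping peaks of both lists were merged, 50798 sites remained, 48.2% in both libraries, 3371 in GFI1-KD alone and 22959 in GFI1-36N alone. Sites at promoters of any gene, 18557 in all, were in GFI1-KD alone in 3.14% and in GFI1-36N alone in 23.9%, and the 7351 proximal sites between promoter and distal in 7.84% and 62.2%. Of 24890 distal sites, 8724 (35.1%) were in both, 2213 (8.89%) in GFI1-KD alone and 13953 (56.1%) in GFI1-36N alone. GFI1-36N thus held 86.3% of the distal sites found in 1 library (Wilson 95% interval 85.8% to 86.8%). With equal numbers of top peaks this share was 55.1%. Distal sites of 1 library were narrow and low, with medians of 263 bp and 22 fragments in GFI1-KD and 285 bp and 19 fragments in GFI1-36N. By distal rank, 2249 sites (9.04%) were higher by 20 in GFI1-KD and 12386 (49.8%) in GFI1-36N. A missing peak has rank 0, so these counts follow the number of distal peaks, 12089 and 23390. With equal numbers of top peaks they were 4170 (26.2%) and 4649 (29.2%) of 15919.

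The distal sites found in 1 library were not tied to the vehicle list of the same genotype. Of the GFI1-KD sites, 41.9% had a peak in the GFI1-KD vehicle list and 46.9% in the GFI1-36N vehicle list. Of the GFI1-36N sites, 30.9% and 29.7% did, and 54.9% were in neither. Sites found in both libraries had a vehicle peak in 83.8% and 89.4%. Introns held 56.8% of the GFI1-KD, 58.7% of the GFI1-36N and 51.7% of the shared distal sites, and the median distance to a coding TSS was 24.99, 21.39 and 22.68 kb.

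Some loci gathered many distal sites of 1 library (chosen after their values were seen). Nearest to Gse1, 34 sites were found in GFI1-36N alone, 0 in GFI1-KD alone and 7 in both. Nearest to Etv6, a leukaemia gene of the ETS family on chromosome 6, the counts were 32, 2 and 14. Of all distal sites, 56.1% were in GFI1-36N alone, 8.89% in GFI1-KD alone and 35.1% in both. Nearest to Runx1, a factor of blood stem cells, the counts were 28, 5 and 13, shares close to these. Zmiz1 had many sites of either kind, 20 in GFI1-36N alone, 8 in GFI1-KD alone and 10 in both. In GFI1-KD, Mdm1 had 8 sites in GFI1-KD alone, 1 in GFI1-36N alone and 6 in both, and Zfp703, a zinc finger gene, had 7, 1 and 7. The remaining strong site of GFI1-KD alone in an exon of the sialyltransferase gene St3gal2 had rank 97.9 with curcumin and 98.4 in the GFI1-KD vehicle library, and no peak in either GFI1-36N library. Near Ccdc114 a GFI1-KD site of rank 92.5 had no peak in either GFI1-36N library or in the GFI1-KD vehicle library. In GFI1-36N, 2 of the 6 strongest sites lay near Zc3h12a inside the chromosome 4 stretch, and the remaining one, of rank 99.5, lay in an exon of 4930539E08Rik and had rank 65.1 in the GFI1-36N vehicle library.

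Distal sites in both libraries with the largest difference toward GFI1-KD lay near Vps37b, Zswim4, Flrt3, Etv1, Tex35 and Atp23. Their distal ranks were 82.1 to 89.7 in GFI1-KD and 0.15 to 7.95 in GFI1-36N, with log2 height ratios from 0.95 to 1.42. The site near Etv1, another ETS factor, held 40 fragments in GFI1-KD and 18 in GFI1-36N. Toward GFI1-36N the sites included those near Grina and Mrtfa on chromosome 15, Casc1 on chromosome 6, and Kcnmb1 and Dock2. In an intron of Dock2, a guanine exchange factor of white blood cells, the site held 20 fragments in GFI1-KD and 42 in GFI1-36N. Near Mrtfa the log2 height ratio was −0.26, small beside its rank difference, from 1.51 to 92.3, on the chromosome with the raised GFI1-KD background.

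The base composition under distal sites was close between the libraries, and for some motifs the Wilson intervals did not overlap. These intervals take sites as independent, which neighbouring sites are not, so they are no test. In the chromosome 4 stretch, 524 distal sites were in GFI1-36N alone. More motifs were searched than are given here. In 200 bases around the summit the median GC content was 48% for sites of GFI1-KD alone, 48% for those of GFI1-36N alone and 50% for shared sites. The GATA motif AGATAA was found in 10.4%, 10.5% and 8.78% of them and in 9.90% of all distal sites. The HOX-PBX motif TGATTNAT was found in 3.30% of GFI1-KD sites (Wilson interval 2.63% to 4.13%), 2.37% of GFI1-36N sites and 2.02% of shared sites (1.74% to 2.33%), and in 2.33% of all. The GFI1 core motif was found in 3.12% (2.47% to 3.93%), 1.85% and 2.10% (1.82% to 2.42%), and in 2.05% of all. The NFY motif CCAAT was found in 22.7%, 20.2% and 17.8%, and in 19.6% of all. AP-1 motifs in 200 bases were found in 6.78% of GFI1-KD, 6.08% of GFI1-36N and 5.58% of shared sites, and in 5.97% of all. PU.1 motifs in 200 bases were found in 1.90%, 1.74% and 1.98%, and in 1.84% of all. For both motifs the Wilson intervals overlapped at this length. In 400 bases, AP-1 motifs were found in 17.3% of GFI1-KD, 12.7% of GFI1-36N and 13.4% of shared sites, and HOX-PBX motifs in 7.46%, 4.84% and 4.41%, against 13.4% and 4.93% of all. The PU.1 motif was found in 7.23% of GFI1-KD (6.22% to 8.38%), 4.54% of GFI1-36N (4.20% to 4.89%) and 7.14% of shared sites, and in 5.69% of all, in the same 400 bases. The IRF motif was found in 8.13%, 8.44% and 10.3%, and in 9.08% of all. The RUNX motif TGTGGT was found in 16.0% of GFI1-KD, 17.0% of GFI1-36N and 15.6% of shared sites in 200 bases, and in 16.4% of all. A match describes the letters only. Promoters marked in 1 library held fewer CpG than shared ones, with a median observed over expected ratio of 0.53 in both GFI1-KD and GFI1-36N against 0.80, in 500 bases around the most upstream TSS.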

How the data were processed

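H3K9ac ChIP-seq was made from BM cells with the ab4441 antibody. The authors trimmed the reads with Trim Galore, mapped them to mm10 with BWA-MEM, called peaks per library with MACS2 and removed ENCODE black list regions. The deposited fold enrichment of each peak is a ratio to the local background, and the deposited −log10 p and −log10 q come from the same caller. No scaling between libraries was applied to them. The control, threshold and duplicate handling of each list are not given in the sources used here.

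Genes, TSSs and exons came from GENCODE M21 and sequence from GRCm38.p6, the same assembly (promoter TSSs from the basic set). Python 3.11.15, numpy 2.4.6, scipy 1.17.1, pandas 2.3.3 and matplotlib 3.10.9 were used. The strongest promoter peak of each gene (1000 bp each side of a TSS, overlap of 1 bp) was ranked within its library. Overlapping peaks were merged into sites: promoter, distal (over 3000 bp from any TSS) or proximal. Fragments at the summit and the local background were recovered from the MACS2 relation within 0.002 of −log10 p for 100% of peaks, and height is fragments over the genome background. The steps were tested on simulated data. Depth per library is unknown, and the median of 24 to 36 summit fragments limits precision. Intervals cover counting error only.

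With 1 library per group, no test was made. Alternatives were a −log10 q minimum, equal numbers of peaks, other windows, overlaps, rank scales and thresholds, and, chosen after seeing the data, leaving out chromosomes or the chromosome 4 stretch. Genes named were Gfi1, other genes of the paper, the 8 strongest promoters of 1 library with no peak of the other within 3 kb, the 8 largest rank differences among shared promoters, up to 4 per list, and the 6 strongest or most different distal sites. Symbols beginning with Gm or AC and a digit, or ending in Rik, were not named among genes. Fos, Fosb, Jun, Maff, Gadd45a, Elane, Mpo, Epb41, E2f2, Klf1 and the genes of the chromosome 4 stretch fall outside this rule and were chosen after their values were seen. The members, lists and rules were chosen with earlier results of these data known. The GFI1-36S lists, the input and the IgG sample were not used. Some genes that this rule names are not reported here.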

Additional observations from a re-analysis of the deposited data

Results flagged for a closer look

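For the 4 values given here the difference between the genotypes had opposite signs with the 2 treatments. This was not tested, since each group has 1 library. The median of all genes also changed sign, −2.72 with curcumin and 1.73 with vehicle. So did other lists, such as the megakaryocyte (−4.34 and 4.31), mast cell (−12.3 and 4.01) and immediate early (3.92 and −1.54) lists. The ribosomal (−9.02 and −3.66) and HOX (−4.02 and −8.33) lists, among others, kept their sign. With curcumin, the number of promoters with a peak in GFI1-KD minus that in GFI1-36N was −694, and with vehicle it was 433. The erythroid list had a median rank difference of −5.48 with curcumin and 14.3 with vehicle. The neutrophil granule list had −7.18 and 7.59, and the NRF2 antioxidant list −5.73 and 6.50. Curcumin medians were also taken without chromosomes 1, 6, 14, 15 and X and the chromosome 4 stretch. They were −1.78 (erythroid), −3.20 (neutrophil), −5.73 (NRF2) and −1.89 (all genes). The 4 libraries come from different mice, and the GFI1-36N vehicle list is named as heterozygous and the curcumin list as homozygous. Whether treatment, mouse or zygosity moves these values cannot be told apart.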

How the results depend on the processing

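No paired analysis was possible because each group has 1 library. In all, 213 of 229 list medians moved by less than 5 rank points and were not counted as reversed. Small medians could still change sign, such as the B cell median from 1.23 to −3.71 with a promoter window of 3000 bp. Of 124 other values, 81 were counted as unchanged. Counts had to stay within 1.5 times and shares of sites or promoters within the Wilson interval. Motif shares had only to keep their direction or lie near 0. With peaks of −log10 q of at least 5, GFI1-36N held 79.2% of the promoters, 79.4% of the sites and 78.2% of the distal sites found in 1 library, 57.6% of sites and 40.4% of distal sites were in both, and 6680 distal sites ranked higher in GFI1-36N. With the 30784 strongest peaks of each list, 275 promoters were in GFI1-KD alone and 496 in GFI1-36N alone (64.3%), the GFI1-36N shares of sites and distal sites in 1 library were 56.6% and 55.1%, the shares in both were 60.7% and 44.1%, distal ranks were higher at 4170 sites in GFI1-KD and 4649 in GFI1-36N, and the interferon median was 0.61. The excess of GFI1-36N sites was thus smaller with equal numbers of peaks. With summits inside the promoter the GFI1-36N share was 80.6%, and genes of all biotypes gave 251 and 1690 promoters in 1 library. Ranks among all peaks gave 154 promoters higher in GFI1-KD and 1676 in GFI1-36N, and medians of −1.83 (monocyte), −0.36 (immediate early) and −1.87 (NF-kB). The same ranks moved the medians of the erythroid (−13.6), neutrophil (−13.9), megakaryocyte (−13.4), T cell (−20.9), B cell (−8.83), NK (−37.1), mast cell (−31.7), interferon (−9.06), MHC class II (−9.98), stromal (−12.9) and ribosomal (−3.74) lists, with all genes at −6.49. At 30 rank points, 120 promoters and 1436 distal sites ranked higher in GFI1-KD, and 329 promoters in GFI1-36N. The GFI1-36N shares of sites and distal sites in 1 library were 85.6% and 84.8% with overlap of 0.5 of the shorter peak and 80.8% and 83.7% with summits within 500 bp, where 46.3% and 36.3% were in both. Distal sites over 10 kb from a TSS gave 85.2%, with 1309 and 6543 sites higher by rank. Chosen after seeing the data, leaving out chromosome 15 gave 49.0% and 36.0% in both and shares of 86.4% and 85.4%, leaving out the chromosome 4 stretch 48.7% and 35.8% in both, and leaving out chromosomes 1, 6, 14, 15 and X with the stretch 49.8% and 37.0% in both, shares of 85.6% and 84.1% and 446 promoters ranked higher in GFI1-36N, and a HOX median of −11.1. Beyond the alternatives' own construction, the cause was not tested.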
